A study of Mus musculus with 6 samples.

Results

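Of 55419 transcript identifiers measured in mouse embryonic stem cells, 146 make up the group described here, transcripts whose level without G9a was at most 0.5 of that in wild type and which lay apart from the shifted runs of the table. The members were chosen by the measured difference itself. Each had a mean of at least 2 CPM (counts per 1000000 counts of its library) over the 3 wild-type libraries, a knockout mean of at most 0.5 of the wild-type mean, and no knockout library as high as the lowest wild-type library. Identifiers in 4 long runs of consecutive table rows were left out, because many neighbours there were shifted together: rows 13 to 2675, 7665 to 8259, 36088 to 36681 and 40746 to 42966. Outside these runs 8715 identifiers reached 2 CPM in wild type, and the members were 1.68% of them.

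The cells were of the TT2 embryonic stem line, which the labels describe by a C57BL/6 female and a CBA male. One group was wild type and the other G9a-/-, and both were kept in medium with serum and LIF, the cytokine that holds mouse stem cells undifferentiated. Each group had 3 poly-A RNA libraries, with totals from 5738463 to 9717847 counts. The labels name neither the number of knockout clones nor separate cultures, so the spread between libraries may be technical, and the knockout may be 1 clone.

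G9a and its partner GLP are enzymes that place methyl groups on lysine 9 of histone H3. The dimethylated form of this mark is abundant in silent chromatin, and loss of either enzyme lowers it over much of the genome in embryonic stem cells. The series addresses how both enzymes bear on Polycomb repressive complex 2, which marks another lysine of the same histone at silent developmental genes. G9a is best known for repression, and the transcripts described here had less RNA where the enzyme was missing.

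The identifiers are UCSC transcript names. The tables used here do not pair them with gene symbols, so the members are described by their levels, and only 2 are named. Gene functions, chromosome positions, promoter sequences, stem cell markers and the transcript of G9a itself were not analysed here. CPM is not divided by transcript length, so a higher CPM of one member than of another can be a longer transcript. Where each cell holds less RNA or fewer cells hold it, these bulk values cannot tell the cases apart.

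Most members were weakly expressed in wild-type cells, and a few were abundant. The wild-type mean had a median of 4.15 CPM over the members, with quartiles of 2.95 and 8.40 CPM and a range from 2.00 to 368 CPM. The 8715 transcripts at 2 CPM or more had a median of 15.8 CPM. The members were thus taken mainly from the lower part of the expression range. Between 2 and 4 CPM lay 69 members, 3.73% of the 1851 transcripts at that level. From 4 to 10 CPM there were 43 members of 1786 transcripts (2.41%), from 10 to 100 CPM 28 of 3334 (0.84%), and at 100 CPM or more 6 of 1744 (0.344%). The share of transcripts meeting the rule thus declined at each step of wild-type level.

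**Figure D1:**
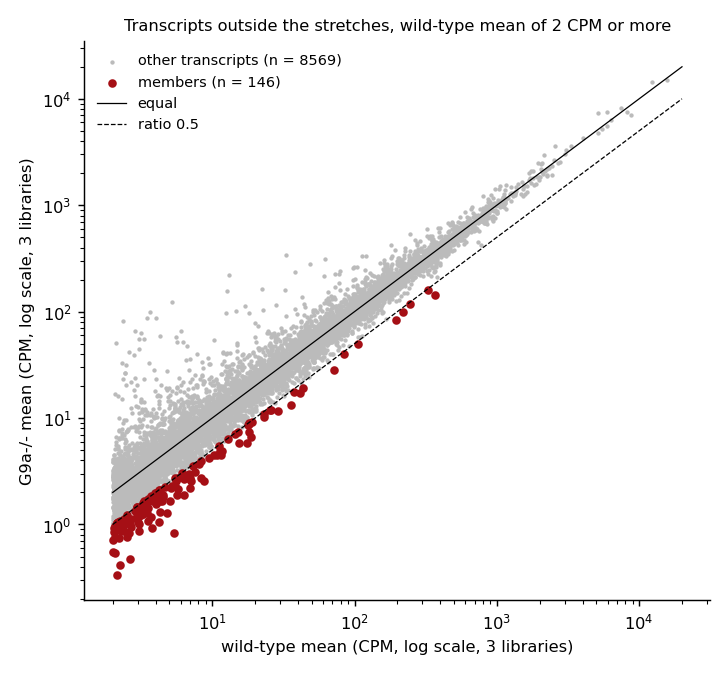
Mean CPM in the 3 G9a-/- libraries against mean CPM in the 3 wild-type libraries, both on log scales, for the 146 members (dark red) and the 8569 other transcripts at 2 CPM or more outside the left-out runs (grey). The solid line marks equal levels and the dashed line a ratio of 0.5. The members lie on or below the dashed line, and most sit below 10 CPM in wild type.

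The most abundant member was uc007hjf.1. It was measured at 367, 364 and 374 CPM in wild-type replicates 1, 2 and 3 and at 151, 130 and 145 CPM in knockout replicates 1, 2 and 3. All knockout libraries were far below all wild-type libraries, and the lowest wild-type value was 2.41 times the highest knockout value. The wild-type mean was 368 ± 5.10 CPM and the knockout mean 142 ± 10.8 CPM (SD, n = 3 each), a ratio of 0.386. It rested on 9501 wild-type and 3354 knockout reads, which bound the ratio of summed reads between 0.369 and 0.399 (95% exact binomial interval, counting error only). The highest wild-type mean of another transcript within 5 rows was 3.06 CPM. The tested ones among them, 3 and 5 rows on, had knockout to wild-type ratios of 1.26 and 1.09.

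Among members with at least 10 CPM in wild type, uc007izf.1 had the lowest ratio. Its levels were 16.9, 21.1 and 15.0 CPM in wild-type replicates 1 to 3 and 5.34, 5.89 and 6.10 CPM in knockout replicates 1 to 3. The 3 knockout libraries lay close together, while wild-type replicate 2 stood above the other wild-type libraries. The means were 17.7 ± 3.13 CPM and 5.78 ± 0.392 CPM (SD, n = 3 each), a ratio of 0.326 or 3.06-fold less. Transcripts beside it in the table differed less between the genotypes. The next identifier went from 24.4 ± 2.14 to 17.8 ± 1.27 CPM (ratio 0.730), and the one 2 rows before it from 49.8 ± 1.17 to 43.0 ± 2.67 CPM (ratio 0.864; SD, n = 3 each). Those 3 and 5 rows on had wild-type means of 169 and 77.4 CPM and ratios of 1.03 and 0.959. Whether these identifiers belong to one gene is not stated.

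After uc007hjf.1, the other 5 members at 100 CPM or more were all nearer to the ratio limit. The second in level was at 350, 307 and 327 CPM in wild type against 159, 153 and 172 CPM in knockout, a ratio of 0.492. The third was at 247, 239 and 246 CPM against 131, 105 and 119 CPM, a ratio of 0.486. In both, every knockout library was well under every wild-type library, although the mean ratio was only just inside the limit. The next 2 went from 221 ± 4.91 to 99.7 ± 4.54 CPM and from 195 ± 3.21 to 83.1 ± 3.57 CPM (SD, n = 3 each), ratios of 0.452 and 0.427. The last of them was at 106 ± 8.81 and 50.1 ± 7.42 CPM, a ratio of 0.474. Over the 6 members at this level the median ratio was 0.463, and the genotypes did not overlap, as the rule required.

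Taken as a pool of RNA, the members were a small fraction of each library. Their summed level was 2640.4, 2586 and 2579 CPM in wild-type replicates 1, 2 and 3 and 1195, 1089.8 and 1131 CPM in knockout replicates 1, 2 and 3. As a share of all counts this was 0.260% for wild type and 0.114% for knockout. The knockout sum was 0.438 of the wild-type sum. The 5 most abundant members held 52.1% of the wild-type sum, so the sum speaks mostly for them. Without these 5 the wild-type sum was 1246 ± 28.3 CPM and the knockout sum 534 ± 29.1 CPM (SD, n = 3 each), a ratio of 0.429. The decrease of the pool was therefore of similar size with and without its most abundant members. These sums restate the choice of members and are no test of it.

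**Figure D2:**
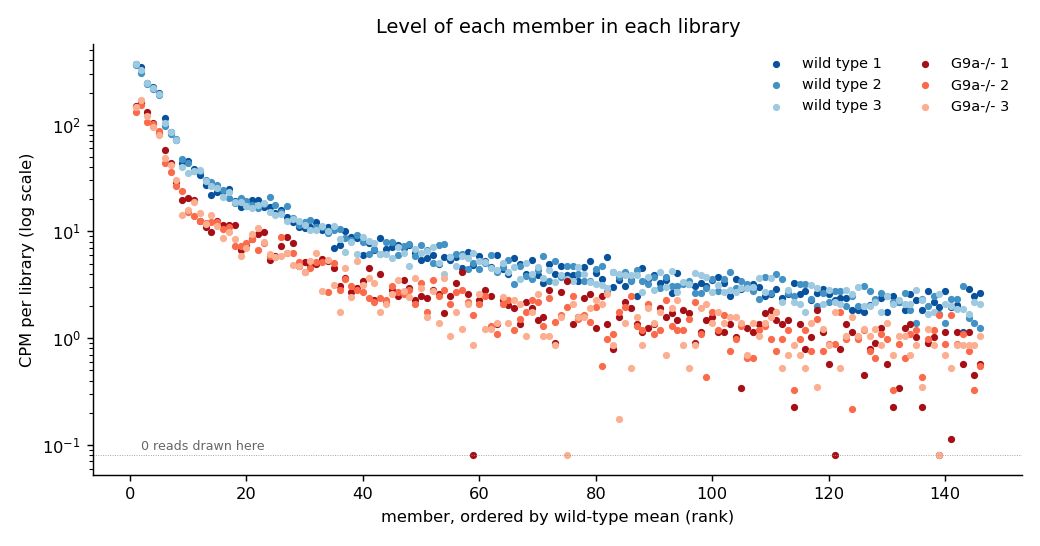
CPM of each of the 146 members in each library on a log scale, with members ordered by wild-type mean from left to right, wild-type libraries in blue and G9a-/- libraries in red. Values of 0 reads are drawn on the dotted line. For each member all blue points lie above all red points, as the rule required, and the knockout points scatter more widely at the weakly expressed end.

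The ratios of most members lay in a narrow range, whose upper end the rule set at 0.5. The ratio of knockout to wild-type mean had a median of 0.423, with quartiles of 0.382 and 0.472, which is a median of 2.36-fold less RNA. A ratio of 0.45 or more was found for 53 members and one of 0.4 or less for 50. Only 11 members were at 0.3 or less, and 5 at 0.25 or less. The deepest decreases were all among weak transcripts: the lowest ratio was 0.156 from 2 to 4 CPM, 0.155 from 4 to 10 CPM, 0.326 from 10 to 100 CPM and 0.386 at 100 CPM or more. The median ratio hardly differed between these levels, at 0.421, 0.420, 0.443 and 0.463, with the same limit of 0.5 at each. The lower a member's level, the fewer reads its ratio rests on.

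The 4 members with a ratio of 0.2 or less, picked out after their values were seen, had few knockout reads. The first had 47, 33 and 60 reads in wild-type replicates 1 to 3 and 0, 15 and 5 in knockout replicates 1 to 3. Its knockout libraries thus disagreed among themselves, with a mean of 0.836 ± 0.818 CPM against 5.40 ± 0.764 CPM in wild type (SD, n = 3 each). The next had 18, 15 and 22 reads in wild type and 2, 4 and 2 in knockout, a ratio of summed reads of 0.158 with a 95% exact binomial interval of 0.0650 to 0.334. The third had 32, 16 and 21 reads against 2, 3 and 5. The fourth had 24, 14 and 20 against 2, 3 and 4. In these last 3 members every knockout library was low, at under 1 CPM. The rule kept each knockout library below the lowest wild-type library, so this is no test of the decrease.

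Counting error was large for most members. Over the 3 knockout libraries together a member had a median of 41.5 reads (range 8 to 3790), and over the wild-type libraries 105 (49 to 9501). The 95% counting interval of the ratio of summed reads stayed under 1 for all 146 members, which the rule favoured. Its upper bound was at or under 0.5 for 29 members, so for the other 117 a ratio somewhat above 0.5 lies within counting error. Among the 34 members at 10 CPM or more in wild type, 12 had an upper bound at or under 0.5. For most members the counts thus do not settle whether the decrease reached the limit of 0.5. That the intervals lie under 1 is no test of a decrease, since the same counts chose the members. Since members were selected for a low ratio, their measured ratios are more likely to be too low than too high.

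**Figure D3:**
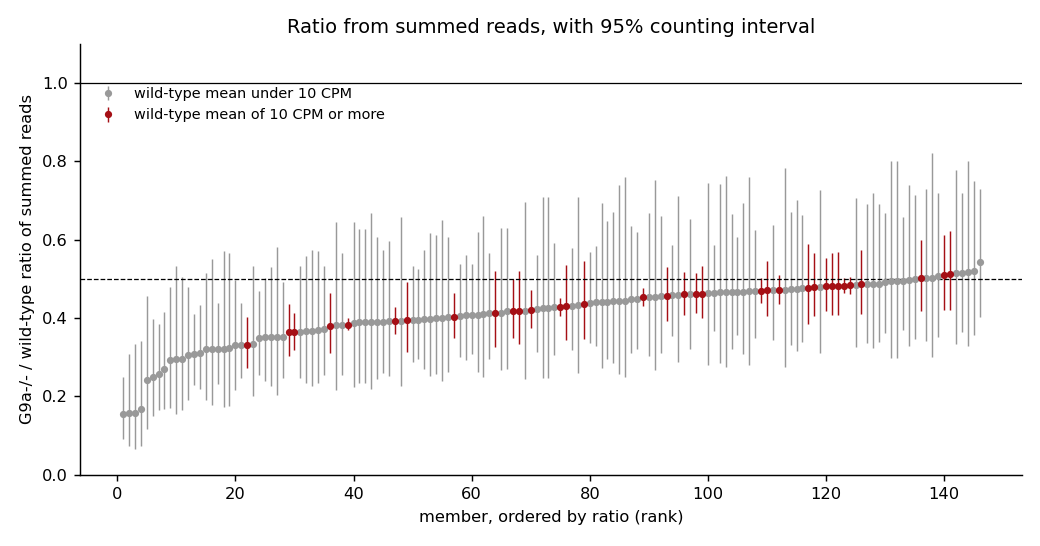
Ratio of summed G9a-/- reads to summed wild-type reads, each scaled by the library totals, for the 146 members ordered by this ratio, with 95% exact binomial intervals that cover counting error only. Members at 10 CPM or more in wild type are dark red and the others grey. The dashed line is at 0.5 and the solid line at 1. All intervals end below 1, and 117 of them reach above 0.5.

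The median ratios of the knockout libraries lay close together for the members as a group, while single members varied more between libraries. The median ratio to the wild-type mean was 0.446 in knockout replicate 1, 0.4002 in replicate 2 and 0.415 in replicate 3. The rule used the mean of these libraries and kept each below the lowest wild-type library, so the closeness of the medians is no test. Replicate 1 was the highest knockout library for 59 members and the lowest for 29, while replicate 2 was the highest for 36 and the lowest for 57, and replicate 3 the highest for 51 and the lowest for 60. For 53 members each knockout library was at or under 0.5 of the wild-type mean. In the other 93 at least 1 knockout library was above that, up to 0.835. Membership of these 93 therefore rests on the mean over the knockout libraries.

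The libraries of one genotype varied somewhat more than counting alone gives. The chi-square per degree of freedom of a member's reads had a median of 0.876 in wild type and 1.052 in knockout, where sampling noise alone gives a median of 0.693. The other transcripts at 2 CPM or more had medians of 0.981 and 1.37. The coefficient of variation of the members was 15.0% in wild type and 23.9% in knockout at the median. For the other transcripts at 2 CPM or more it was 7.31% and 8.82%. The wild-type median was 4.15 CPM for the members and 15.8 CPM for all 8715 transcripts, so these coefficients are not compared at like read numbers. The chi-square medians, which allow for read number, were lower for the members than for the others. Fewer reads of the members in knockout move with their higher spread there. The rule against overlap also removed transcripts with a wide spread, so these values are no test.

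**Figure D4:**
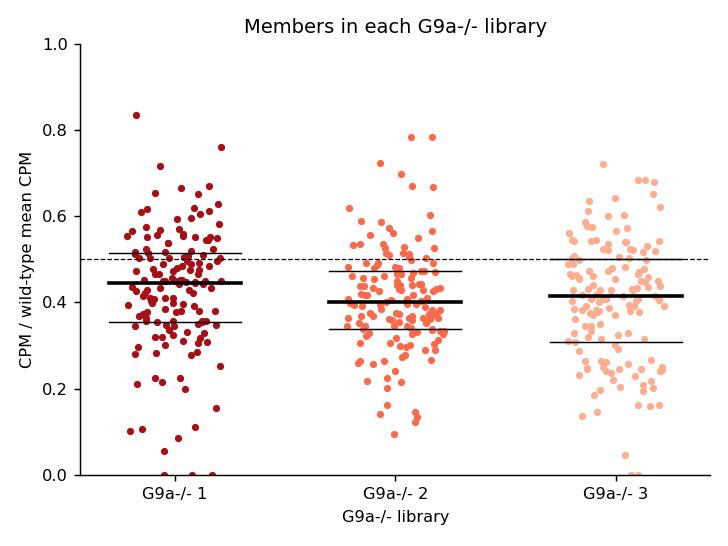
CPM of each member in each G9a-/- library divided by the member's wild-type mean. Points are members, the thick bar is the median and the thin bars the quartiles, with the dashed line at 0.5. The medians are 0.446, 0.4002 and 0.415 for replicates 1, 2 and 3, and all 3 libraries hold members above 0.5.

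In a few members 1 or more knockout libraries held no read at all. This was the case for 4 members, also picked out after their values were seen: 3 had no read in 1 knockout library and 1 had none in 2. One member went from 38, 31 and 34 reads in wild type to 30, 18 and 0 in knockout. Its knockout libraries thus differed widely, with replicate 1 at 0.835 and replicate 2 at 0.481 of the wild-type mean and replicate 3 empty, for a mean of 1.79 CPM and a ratio of 0.439. Another had 19, 11 and 25 reads in wild type and 0, 15 and 0 in knockout, so that knockout replicate 2 alone was near the wild-type level. One more had 22, 18 and 21 reads against 0, 8 and 10. The remaining one is the member with the lowest ratio. In contrast 61 members kept a knockout mean of 2 CPM or more, and 25 were under 1 CPM in knockout.

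A fit over the whole table placed nearly all members among the lower transcripts, as their choice all but fixed. With the edgeR quasi-likelihood test and a Benjamini-Hochberg adjusted p under 0.05, 145 of 146 members were called lower. The background was 18.4% of the 12713 transcripts tested, and 17.1% of the 8715 at 2 CPM or more outside the left-out runs. The member not called was the one with 30, 18 and 0 knockout reads. The median log2 fold change was -1.21 for the members and -0.02 for all tested transcripts. At an adjusted p under 0.01 edgeR called 117 members, where 12.3% of tested transcripts were lower. DESeq2, which also brought its own low-count filter, called 94 members lower at 0.05, where 8.1% of the 17767 transcripts it gave an adjusted p were lower. Not overlapping, with knockout below wild type, was part of the rule, and held for 23.1% of the 8715 transcripts. For 126 members the authors' deposited table lists an adjusted p under 0.05 and a decrease, as it does for 9.98% of the identifiers with an adjusted p. All 146 have a log2 fold change below 0 in the authors' deposited table, with a median of -1.09. That value is nearer to 0 than the edgeR value for each member. For uc007hjf.1 the authors' deposited table lists -1.36 and for uc007izf.1 -1.53.

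At the limits of the rule the transcripts inside and outside were alike. The member nearest the ratio limit went from 18.0 to 9.00 CPM, a ratio of 0.4995, and the nearest transcript outside had 32.2 and 16.1 CPM, a ratio of 0.501. Between 0.48 and 0.5 lay 30 members, and between 0.5 and 0.52 another 38 transcripts without overlap. At the lower limit of wild-type level, the last member had 2.00 CPM in wild type and 0.720 in knockout, and the first left out had 1.98 and 0.791 CPM. Overlap alone kept out 8 transcripts. The nearest of them had a lowest wild-type value of 3.705 CPM and a highest knockout value of 3.707 CPM. Values just inside and just outside each limit were thus close together. Without knockout replicate 1, the rule applied to the other 5 libraries took 222 transcripts, 131 of them members. Leaving out any other library gave 159 to 188.

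Increases of the same size were more frequent than decreases. The mirrored rule, with knockout at 2 CPM or more and wild type at no more than 0.5 of it, was met by 748 of 8972 transcripts outside the left-out runs (8.34%). Inside the 3 runs where transcripts were mostly lower in knockout, 97 of 1317 transcripts at 2 CPM or more met the rule (7.37%), at 7.31%, 7.64% and 7.34% in the first, second and last of them. In the run with mostly higher transcripts, rows 36088 to 36681, 2 of 73 did. The members therefore leave out transcripts that decreased as much but lay among neighbours that were also lower.

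Members were spread over the whole table. When the rows were cut into 10 equal parts, each held 10 to 21 members, between 1.055% and 2.95% of the transcripts at 2 CPM or more. The highest share was in the last part, with 13 of 441, and the lowest in part 5, with 10 of 948. The median distance from one member to the next was 207 rows, and the widest, without counting rows of the left-out runs, was 1979. No source used here says what the row order follows.

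Some members were neighbours. Another member lay within 5 rows for 18 of 146 (12.3%), while 3.86% of the 8569 other transcripts at 2 CPM or more had a member that near. The 18 formed 9 pairs and no larger group. In 1 pair, 2 rows apart, the wild-type means were 37.4 ± 1.08 and 17.8 ± 0.837 CPM and the knockout means 17.5 ± 2.98 and 8.58 ± 1.13 CPM (SD, n = 3 each), with ratios of 0.468 and 0.482. In another, on adjacent rows, the wild-type means were 43.5 ± 3.77 and 6.88 ± 0.751 CPM and the ratios 0.441 and 0.422. Both transcripts of these pairs were lower by a similar factor while their levels differed. In 8 of the 9 pairs the ratios differed by at most 0.0865. In the remaining pair, 4 rows apart, they were 0.459 and 0.179, the lower one resting on 10 knockout reads. The rule held both ratios of a pair at or under 0.5, and over all members the quartiles were 0.382 and 0.472. Differences between members outside the pairs were not computed, so like ratios within a pair are no test of a shared change. Transcripts of one gene can share reads, and how such reads were counted is unknown here, so a pair need not be independent measurements.

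Transcripts next to members that were not members themselves leaned to lower values. Within 2 rows there were 167 tested ones, with a median log2 fold change of -0.14 and quartiles of -0.43 and 0.09. Of these 46 were called lower (27.5%) and 12 higher (7.19%) by edgeR. Over all 10901 tested transcripts outside the left-out runs that were not members, the median was 0.03, and 12.8% were lower and 23.6% higher. Within 5 rows the median was -0.04, with 21.1% lower and 14.9% higher of 402, and within 20 rows -0.02, with 17.6% and 20.8% of 1368. The lean was thus greatest beside a member and smaller farther away. Sharing of reads with the member may enter these values and was not tested.

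The neighbours of a member did not all move with it. A tested transcript that was not a member lay within 5 rows of 132 members. For 51 of these no such neighbour was called in either direction. A lower neighbour was found beside 56 members (42.4%) and a higher one beside 42 (31.8%), of which 17 had both. Of the 8033 other transcripts at 2 CPM or more with such a neighbour, 35.0% had a lower one and 49.9% a higher one, and 29.7% had none called, against 38.6% of the 132 members. These shares are a description, and their difference was not tested.

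**Figure D5:**
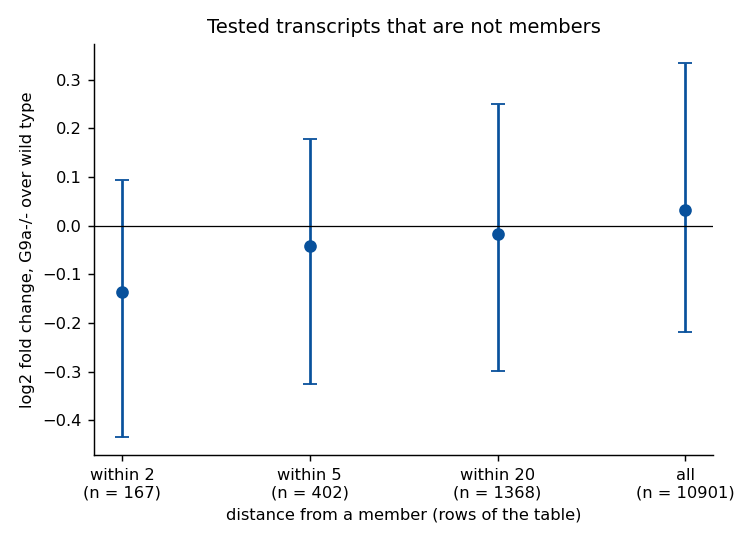
Log2 fold change, G9a-/- over wild type, of tested transcripts that are not members, by distance from the nearest member in rows of the table. Points are medians and bars run from the lower to the upper quartile, and the groups are nested. The median moves from -0.14 within 2 rows to -0.02 within 20 rows and 0.03 for all 10901 transcripts outside the left-out runs.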

How the data were processed

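Poly-A RNA was sequenced from 3 wild-type and 3 G9a-/- libraries. The authors deposited raw counts per UCSC identifier, with their own log2 fold changes and adjusted p-values. The submitters' processing notes list build mm9 with Bowtie 0.12.7, R 2.12.1 and DESeq2, and no role for each. For the counter and strand setting, the sources used here give nothing. A further 6 columns of values normalized per library were not used.

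CPM used column sums. The whole table was fitted with edgeR 4.0.16 under R 4.3.3 (filterByExpr, TMM, quasi-likelihood test, no covariate, adjusted p under 0.05), and the fit was tested on simulated data. DESeq2 1.42.0 was an alternative. The members and lists were chosen with earlier results of these data known. The naming rule took the member with the highest wild-type mean and the one with the lowest ratio at 10 CPM or more. Planned gene lists were not applied, since no table paired identifiers with symbols. Counting intervals are exact (Clopper-Pearson).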

Additional observations from a re-analysis of the deposited data

How the results depend on the processing

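The number of members followed the limits of the rule: 266 with a wild-type minimum of 1 CPM, 77 with 4 CPM, 387 at a ratio of 0.6 or less, 50 at 0.4 or less and 245 with the left-out runs kept. It was 140 with TMM or DESeq2 scaling and 154 with overlap allowed. Leaving out each library gave 159 to 222, with 118 to 131 of the members kept each time. DESeq2, run with its own low-count filter and so on another set of transcripts, called 94 members lower and 1440 of 17767 transcripts with an adjusted p. The tool and the filter changed together, and the cause was not tested. At an adjusted p under 0.01 edgeR called 117 members lower, and 12.3% of the 12713 transcripts tested. With a library left out edgeR called 128 to 136 members lower, and 1890 to 2238 of the 13177 to 13399 transcripts tested. The median log2 fold change of members stayed between -1.26 and -1.18 over the other fits, and was -1.13 in members at 10 CPM or more, a setting added after seeing the data. Members with another member nearby numbered 10 within 2 rows and 37 within 20. The median of their neighbours was -0.14 and -0.017 at these distances. With the replicate number as a block 146 members and 2531 of 12713 tested transcripts were lower. Replicate numbers were not treated as pairs: deviations of same-numbered libraries correlated at 0.068, 0.0898 and 0.0233 over tested transcripts, although these were the highest values for each library, a hint from the data only. The median log2 fold change of members was below 0 in each fit, as their choice all but fixed, and counts have no direction. The median of their tested neighbours was below 0 at each distance. Called neighbours were more often lower than higher within 2 and 5 rows, but more often higher within 20 rows (20.8% against 17.6%).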
